A study of Mus musculus with 6 samples.

Results

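The Hox genes of tail skin keratinocytes were described here. They were the rows of the deposited count table whose gene symbol was Hoxa, Hoxb, Hoxc or Hoxd followed by a paralogue number, which gave 36 of the 19618 genes listed. GENCODE M21 annotates 39 such genes on GRCm38. Hoxb1, Hoxd1 and Hoxd12 had no row and were not analysed here. RNA was measured by stranded mRNA sequencing of cells released with trypsin and dispase from the tail epidermis of mice 4 months of age. The knockout group held 3 libraries (DE679, DE685 and DE688) from mice with the K14cre transgene and a homozygous floxed Gpr161 allele. K14cre drives Cre recombinase from a keratin 14 promoter, which is active in basal keratinocytes. The control group held 3 libraries (DE680, DE684 and DE689) from mice with no K14cre in their labels. Of these samples, 1 was labelled homozygous and 2 were labelled heterozygous for the floxed allele, so every sample carried at least 1 floxed allele. The column names give knockout or control but not which control sample, so the homozygous control was not assigned to a library. Per-library values below are always given in the order DE679, DE685, DE688 for the knockout and DE680, DE684, DE689 for the control.

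Hox genes encode homeodomain transcription factors and lie in 4 clusters, Hoxa on chromosome 6, Hoxb on chromosome 11, Hoxc on chromosome 15 and Hoxd on chromosome 2. Within a cluster the paralogue number follows the order of the genes along the chromosome, and low numbers are used toward the head of the embryo and high numbers toward the tail. Adult skin cells keep site-specific Hox expression, which is often called a positional code. Gpr161 is a ciliary receptor known to restrain Hedgehog signalling. All libraries came from tail, so no other body site was compared. The cells were measured in bulk, so the levels describe keratinocytes together with any other cells of the preparation.

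The homeodomain binds DNA with its recognition helix, whose end differs between some of the paralogue groups. The 33 bases that code for the end of this helix are shown for the members on which the results turn, on GRCm38 and in the sense of the gene. The capitals mark the last 15 of these bases, the end of the stretch.
Hoxd9 (chr2:74699356-74699388, plus strand): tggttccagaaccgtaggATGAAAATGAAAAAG
Hoxa9 (chr6:52224274-52224306, minus strand): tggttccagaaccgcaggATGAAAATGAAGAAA
Hoxc9 (chr15:102984071-102984103, plus strand): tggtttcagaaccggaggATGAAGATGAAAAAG
Hoxc10 (chr15:102970989-102971021, plus strand): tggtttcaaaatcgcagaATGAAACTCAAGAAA
Hoxd11 (chr2:74684058-74684090, plus strand): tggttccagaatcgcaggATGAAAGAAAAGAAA
Hoxc13 (chr15:102927351-102927383, plus strand): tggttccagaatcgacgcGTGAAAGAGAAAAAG
Hoxa7 (chr6:52215849-52215881, minus strand): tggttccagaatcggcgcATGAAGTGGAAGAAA
Hoxc8 (chr15:102992712-102992744, plus strand): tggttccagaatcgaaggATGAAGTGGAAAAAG
The same stretch was read in all 36 members, and its translations fell into 10 kinds. The 15 members of paralogue groups 4 to 8 had the same translation, Hoxa7 and Hoxc8 among them. Hoxd9, Hoxa9 and Hoxc9 belong to paralogue group 9, and Hoxa9 and Hoxc9 each differ from Hoxd9 at 3 of the 33 bases. Such likeness matters for counting, since a read within it could match more than 1 member. Among 628 pairs of members without shared exons, the longest run of identical transcript bases was 52, between Hoxa6 and Hoxb4, and 21 pairs shared a run of 30 or more. The annotation lets Hoxd3 and Hoxd4 share 388 exon bases, and Hoxc5 and Hoxc10 share 166. In all, 16 members shared exon bases with another annotated gene on either strand, and 14 had fractional counts in at least 1 library. Their levels are uncertain to that extent.

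Total estimated counts were 17157864 to 25344399 per library, so the floor of 3 counts lay at 0.117 to 0.173 CPM (counts scaled to a common library total, here with TMM factors, the trimmed mean of M values). Floors cover counting error only. Keratin genes checked the cell type: Krt5, a keratin of basal keratinocytes, was at 11200 to 15700 CPM. Gli1, a target of Hedgehog signalling, was 66.7, 67.1 and 74.5 CPM in the knockout and 9.23, 9.96 and 8.25 CPM in the control, and Ptch1, a Hedgehog receptor and target, was 95.5, 116 and 122 against 31.0, 40.4 and 40.1 CPM. The targeted gene did not separate the groups: Gpr161 was 26.8, 33.6 and 25.9 CPM against 30.2, 32.2 and 31.9 CPM (log2 fold change −0.13, adjusted p = 0.553, edgeR). The floxed part of the gene is not given in the labels, so this count checks no label.

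The tail keratinocyte preparations carried RNA of a broad set of Hox genes, and 30 of the 36 members reached a mean of 1 CPM over the 6 libraries. To compare genes of unequal length, CPM was divided by the length of the union of exons in kilobases. On that scale of levels, members with paralogue numbers 9 to 13 made up 67.9% of the summed Hox level, with 65.3% to 70.2% in single libraries. Members 5 to 8 made up 25.7% and members 1 to 4 made up 6.34%. The Hoxd cluster held 40.8% of the sum, Hoxc 24.5%, Hoxa 23.5% and Hoxb 11.2%. With the longest transcript as the length, Hoxa held 30.2%, Hoxc 21.7% and Hoxd 37.4%. The summed level over all members was 191 to 222 CPM per kb, and the knockout (212 ± 14.3, SD, n = 3) and the control (205 ± 13.1, SD, n = 3) overlapped.

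**Figure D1:**
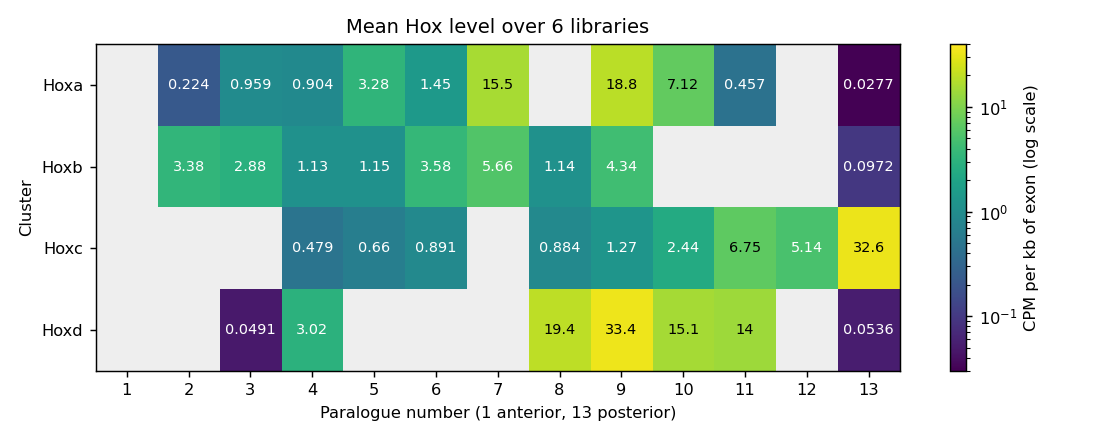
Mean level of 35 Hox genes over the 6 libraries in CPM per kb of exon (colour, log scale; number in each cell), with the cluster in rows and the paralogue number in columns. Grey cells show no value. The highest values are Hoxd9 (33.4) and Hoxc13 (32.6), and the values of Hoxa13, Hoxb13 and Hoxd13 are under 0.1.

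The order of the levels began with Hoxd9 (mean 33.4 CPM per kb, range 29.4 to 34.6) and Hoxc13 (mean 32.6, range 21.3 to 42.3). Hoxc13 was the highest member in 4 libraries and Hoxd9 in the other 2, DE685 and DE684, so these neighbours did not differ beyond their spread. Hoxd8 (19.4 CPM per kb), Hoxa9 (18.8), Hoxa7 (15.5), Hoxd10 (15.1) and Hoxd11 (13.96) followed. These 7 members held 71.4% of the summed level. Of the 35 neighbouring pairs in the order, 32 overlapped in range. The 3 pairs that did not overlap were Hoxc13 with Hoxd8, Hoxa9 with Hoxa7, and Hoxd11 with Hoxa10 (7.12 CPM per kb). Most neighbours in the order were therefore not apart in range over these libraries. Within every single library, though, Hoxc10 was above Hoxa6, Hoxb4 above Hoxa3, Hoxc5 above Hoxc4 and Hoxa11 above Hoxa2. The other pairs with overlapping ranges changed order between libraries. The place of Hoxa9 depends on its length, since it was at 32.5 CPM per kb with its longest transcript.

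Paralogue group 13, the most posterior group, was uneven. Hoxc13, a gene of hair and nail known for its control of hair keratins, had 973 to 2382 counts per library. The other members of the group were at or near the floor, with 0 to 7 counts for Hoxa13, 1 to 11 for Hoxb13 and 1 to 7 for Hoxd13. Hoxa13 was listed at 0 in all 3 knockout libraries, which allows up to 0.117 to 0.173 CPM there, and at 2, 1 and 7 counts in the control. Hoxd3 (0 to 11.3 counts) and Hoxa2 (4 to 19 counts) were also under 1 CPM. The groups of Hoxa13 did not overlap, but 5 of the 6 libraries held at most 3 of its counts. Differences between the groups could not be judged at this depth for the members near the floor.

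**Figure D2:**
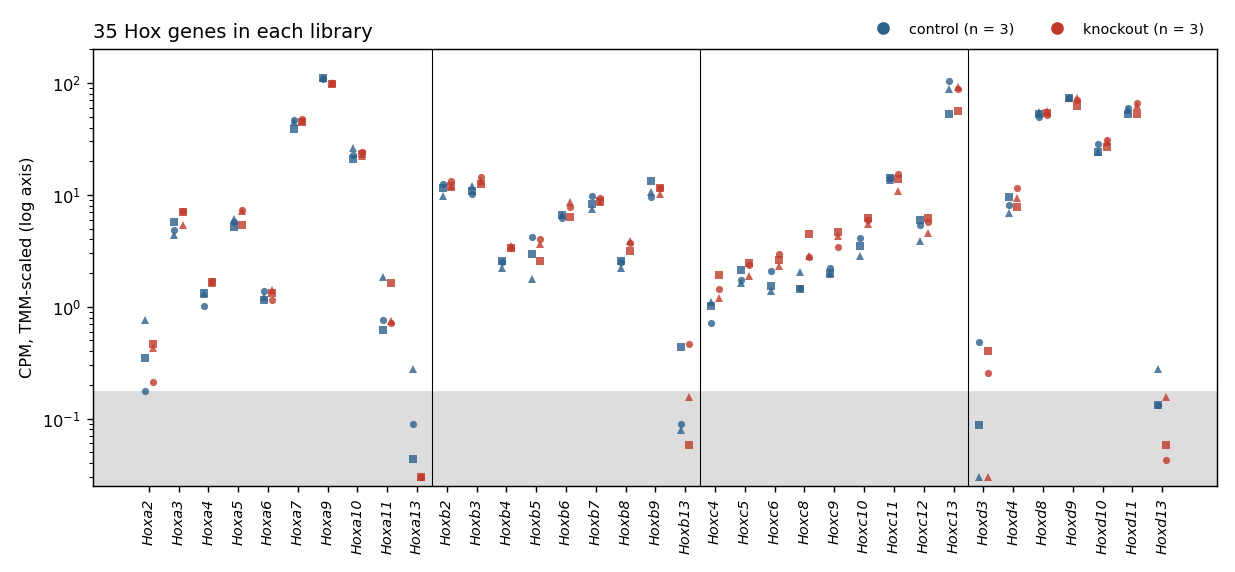
Level of 35 of the 36 Hox genes in each of the 6 libraries in CPM on a log axis, by cluster, with control libraries in blue and knockout libraries in red. Grey marks levels at or below 3 counts in the shallowest library (0.173 CPM), and values under 0.03 CPM are drawn at 0.03. Hoxa13, Hoxb13 and Hoxd13 reach the grey zone while Hoxc13 stays at 52.5 CPM or more.

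The comparison of knockout with control libraries asks whether the Hox code of these tail keratinocyte preparations differed after epidermal deletion of Gpr161. Of the 36 members, 32 passed the filter on low counts and were tested among 15422 genes; Hoxa13, Hoxb13, Hoxd3 and Hoxd13 did not pass. None of the 32 reached an adjusted p under 0.05 by edgeR, where 1.6% of all genes tested did (247 genes; 192 or 1.24% higher and 55 or 0.357% lower in the knockout). At an unadjusted p under 0.05, 7 members were higher and 1 was lower in the knockout, against 9.9% and 9.1% of all genes tested. The groups did not overlap for 10 of the 32 members tested, where 25.6% of all genes tested did not overlap. Of these, 9 were higher (12.8% of all genes) and 1 was lower (12.8% of all genes). The log2 fold change was positive for 23 of the 32 members, against 49.3% of all genes tested, with a median of 0.17 against −0.00362 for all genes. Without the filter, it was positive for 25 of 36 members, with a median of 0.14. That edgeR fit called 0 members, where it called 229 of 19618 genes. At an unadjusted p under 0.05 it had 7 members higher and 2 lower in the knockout. limma-voom and limma-trend also called 0 members, and DESeq2 called 2, Hoxc9 and Hoxc10, where it called 5.89% of the 14816 genes to which it gave an adjusted p.

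**Figure D3:**
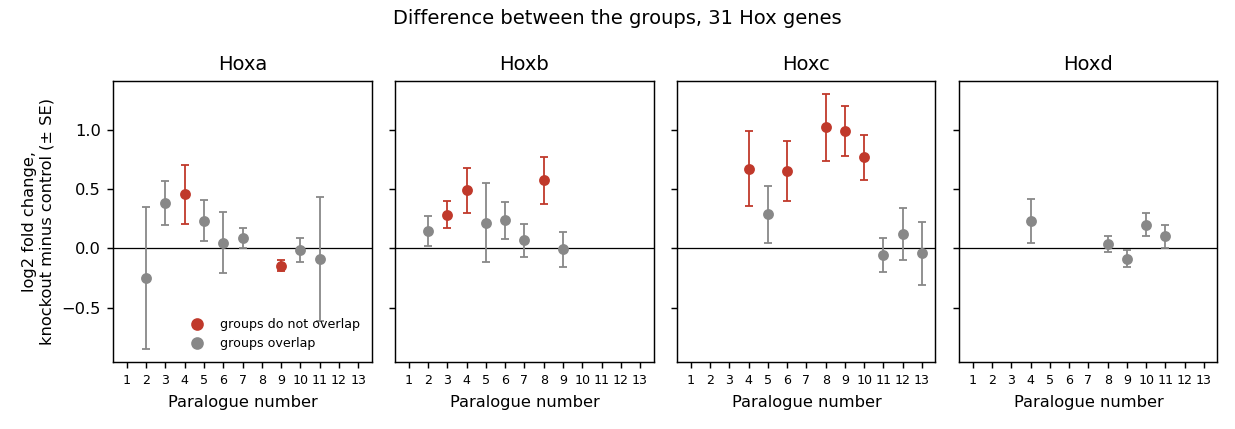
Log2 fold change of knockout over control (edgeR) with its standard error for 31 of the 32 Hox genes tested, by cluster and paralogue number. Red points have groups that do not overlap; in Hoxc the 6 members from Hoxc4 to Hoxc10 lie above 0, and Hoxc11, Hoxc12 and Hoxc13 lie within 0.12 of it.

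The Hoxc cluster held the members with the largest differences. Hoxc9 (chr15:102976439-102985099) was 3.39, 4.62 and 4.28 CPM in the knockout and 2.22, 2.02 and 1.94 CPM in the control. Every knockout library was above every control library, and the log2 fold change was 0.99 (SE 0.21, adjusted p = 0.0715, edgeR), the smallest adjusted p among the members. Without any 1 library it was 0.90 to 1.11 with an adjusted p of 0.121 to 0.207, and DESeq2 gave an adjusted p of 0.0157. Hoxc8 (chr15:102990607-102994111) was 2.80, 4.45 and 2.84 against 1.46, 1.45 and 2.02 CPM. DE685 stood above the other knockout libraries, the groups did not overlap, and the log2 fold change was 1.02 (SE 0.28, adjusted p = 0.125, edgeR). Hoxc10 (chr15:102966796-102971893) was 5.98, 6.18 and 5.48 against 4.08, 3.47 and 2.82 CPM. Its groups did not overlap either, and the log2 fold change was 0.77 (SE 0.19, adjusted p = 0.101, edgeR; 0.0319 by DESeq2).

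The neighbouring anterior members of the cluster pointed the same way at lower levels. Hoxc6 was 2.97, 2.60 and 2.29 CPM against 2.09, 1.54 and 1.39 CPM, without overlap (log2 fold change 0.65, SE 0.25, adjusted p = 0.227, edgeR). Hoxc4 was 1.44, 1.91 and 1.21 CPM against 0.710, 1.01 and 1.11 CPM, also without overlap (0.67, SE 0.31, adjusted p = 0.293). Hoxc5 was 2.38, 2.48 and 1.87 CPM against 1.73, 2.15 and 1.63 CPM, and its groups overlapped (0.28, SE 0.24, adjusted p = 0.562). The block from Hoxc4 to Hoxc10 was chosen after its values were seen, so its count is a description. Its 6 members had positive log2 fold changes in the edgeR fit and in each of the 14 alternatives, with medians from 0.54 to 0.87. The alternatives reuse the same libraries, so the shared direction is no separate test of the block. The summed level of the 6 members was 8.08, 9.34 and 7.66 CPM per kb in the knockout and 5.27, 4.88 and 4.53 CPM per kb in the control. These sums, 8.36 ± 0.871 and 4.89 ± 0.373 CPM per kb (SD, n = 3 each), did not overlap, and they made up 3.18% of the Hox level. DE685 was the highest knockout library for 5 of the 6 members.

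The posterior end of the cluster did not separate the groups. Hoxc11 was 15.5, 13.9 and 10.7 CPM against 14.2, 14.04 and 13.4 CPM, and Hoxc12 was 5.77, 6.24 and 4.55 CPM against 5.37, 6.01 and 3.85 CPM. Hoxc13 was 87.7, 56.2 and 92.7 CPM against 104, 52.5 and 87.7 CPM. Hoxc11 to Hoxc13 summed to 44.0 ± 7.17 CPM per kb in the knockout and 44.9 ± 10.3 in the control (SD, n = 3 each). The difference between the 2 blocks of the cluster was not tested.

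**Figure D4:**
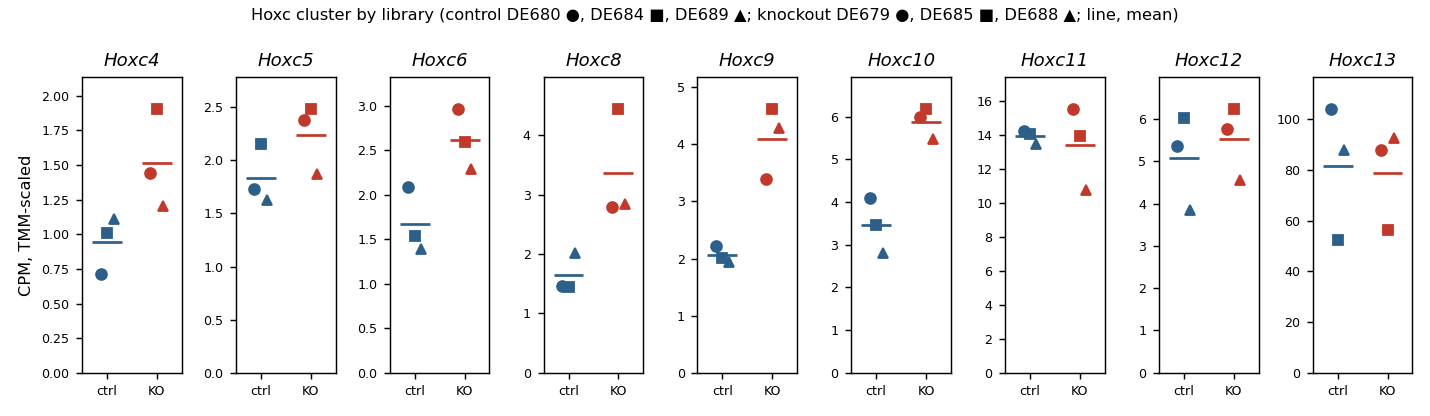
Level of the 9 Hoxc genes in CPM in the control (blue) and knockout (red) libraries, 1 symbol per library and a line at the group mean, each panel with its own axis from 0. The groups are apart for Hoxc4, Hoxc6, Hoxc8, Hoxc9 and Hoxc10 and overlap for Hoxc5, Hoxc11, Hoxc12 and Hoxc13.

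Hoxc13 varied between libraries within both groups. The low library in each group, DE685 in the knockout (56.2 CPM) and DE684 in the control (52.5 CPM), was the one with Y-linked transcripts (3311 and 5291 counts, against at most 3 in the others). With a term for Y-linked transcripts beside genotype, added after these values were seen, Hoxc13 was lower in the libraries with them by a log2 difference of −0.77 (SE 0.09, adjusted p = 0.0245, edgeR). It was the only 1 of the 32 members called for that term, where 0.46% of all genes tested were called. Hoxd11 was the other member at an unadjusted p under 0.05 (−0.22, adjusted p = 0.321, edgeR). Foxn1, a factor of hair and keratinocyte differentiation, was low in the same libraries, with 60.1, 41.9 and 59.6 CPM against 62.6, 38.0 and 66.6 CPM (−0.64, SE 0.08, adjusted p = 0.0292, edgeR). It was the only gene called for that term among the 14 tested of the hair follicle list, of which 3 were lower and 11 higher in those libraries. Krt31, a hair keratin, was higher there by a log2 difference of 0.89 (SE 0.45, adjusted p = 0.562), and Lgr5, a stem cell marker, by 0.51 (SE 0.15, adjusted p = 0.247, edgeR). Each group held 1 such library, so sex and whatever else marks these 2 libraries cannot be told apart.

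**Figure D5:**
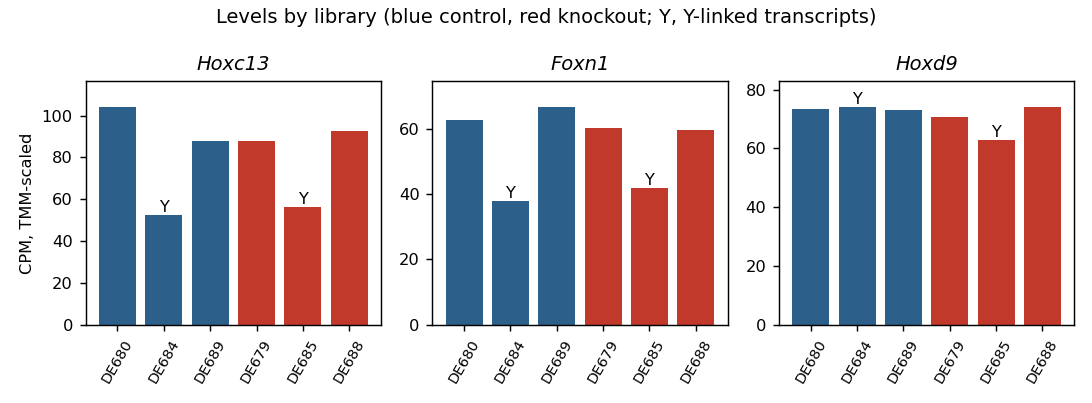
Level of Hoxc13, Foxn1 and Hoxd9 in CPM in each library (blue control, red knockout; bars from 0; Y marks libraries with Y-linked transcripts). Hoxc13 and Foxn1 are lowest in DE684 and DE685, while Hoxd9 lies between 62.8 and 74.0 CPM in all libraries.

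In the Hoxa cluster, the differences were small and went both ways, with positive log2 fold changes for 5 of 10 members tested and a median of 0.02. Hoxa9 (chr6:52223100-52231089), known for its role in blood stem cells, varied little within the groups (coefficient of variation 1.05% in the control and 1.23% in the knockout), at 99.99, 98.2 and 100.6 CPM in the knockout and 109, 112 and 109.9 CPM in the control. Among the members tested, it was the only one without overlap that was lower in the knockout (log2 fold change −0.15, SE 0.05, adjusted p = 0.178, edgeR). Hoxa7 was 47.2, 44.8 and 46.2 CPM against 46.7, 38.6 and 44.6 CPM, and Hoxa10 was 24.2, 23.0 and 22.4 CPM against 22.9, 20.9 and 26.3 CPM. Among these higher members of the cluster, only Hoxa9 separated the groups. Hoxa3 was 7.21, 6.99 and 5.37 CPM against 4.88, 5.75 and 4.403 CPM, and Hoxa5 was 7.29, 5.43 and 7.24 CPM against 5.77, 5.13 and 6.11 CPM. Both overlapped between the groups. Hoxa4 was 1.70, 1.68 and 1.63 CPM against 1.02, 1.32 and 1.31 CPM, without overlap (0.45, SE 0.25, adjusted p = 0.359, edgeR). Hoxa6 was 1.15, 1.33 and 1.40 CPM against 1.38, 1.14 and 1.23 CPM, and Hoxa11 was 0.721, 1.62 and 0.739 CPM against 0.754, 0.614 and 1.82 CPM. In Hoxa11 a single library of each group, DE685 and DE689, was high.

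In the Hoxb cluster, 7 of 8 members tested had positive log2 fold changes, with a median of 0.23. Hoxb8 was 3.69, 3.18 and 3.89 CPM against 2.48, 2.54 and 2.22 CPM (0.57, SE 0.20, adjusted p = 0.186, edgeR). Hoxb4, known for its role in blood stem cells, was 3.35, 3.35 and 3.46 CPM against 2.48, 2.54 and 2.22 CPM (0.49, SE 0.19, adjusted p = 0.226). Both genes had the same 56, 58 and 56 counts in the control libraries and different counts in the knockout. Hoxb3 was 14.5, 12.5 and 13.3 CPM against 10.2, 10.8 and 12.1 CPM (0.28, SE 0.11, adjusted p = 0.239), and 52.9% of its exon bases lie opposite Hoxb3os. The groups did not overlap for these 3 genes, and none passed the test. Hoxb7, the highest member of the cluster per kb (5.66 CPM per kb), was 9.46, 8.78 and 8.56 CPM against 9.85, 8.25 and 7.50 CPM. Hoxb9 was 11.6, 11.6 and 10.3 CPM against 9.58, 13.4 and 10.6 CPM, and Hoxb2 was 13.3, 12.1 and 11.8 CPM against 12.4, 11.4 and 9.68 CPM. These 3 overlapped between the groups. Hoxb6 was 7.76, 6.30 and 8.71 CPM against 6.17, 6.67 and 6.54 CPM, and Hoxb5 was 4.07, 2.54 and 3.66 CPM against 4.17, 2.94 and 1.78 CPM. Both overlapped as well.

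The Hoxd cluster, the highest in level, held no member whose groups were apart. Hoxd9, a paralogue of the posterior trunk and limb, was 70.6, 62.8 and 74.0 CPM against 73.3, 74.0 and 73.0 CPM (log2 fold change −0.09, SE 0.07, adjusted p = 0.544, edgeR). Hoxd11 was 66.7, 53.1 and 62.8 CPM against 60.3, 52.8 and 57.1 CPM, and Hoxd8 was 51.8, 53.5 and 56.2 CPM against 50, 52.9 and 54.7 CPM. The groups overlapped for all 3. Hoxd10 was 31.2, 26.8 and 29.6 CPM against 28.2, 24.0 and 24.2 CPM (0.20, SE 0.10, adjusted p = 0.311). Hoxd4 was 11.6, 7.86 and 9.37 CPM against 8.16, 9.56 and 6.90 CPM. Both overlapped between the groups. Of the Hoxd4 exon bases, 52.3% are shared with other annotated genes on the same strand, and its counts were fractional in all 6 libraries. The 5 tested Hoxd members were all among the 16 tested members with the higher levels per kb. The 16 members tested with the higher levels per kb had a median log2 fold change of 0.08, and the other 16 had 0.42 and held all 9 members that were higher in the knockout without overlap.

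Regulatory sequences within the clusters were read for the members named above. The clusters carry the genes of miR-196 and miR-10, and their mature sequences (RefSeq, GRCm38.p6) are shown with the seed, bases 2 to 8, in capitals, because miR-196 is known to target Hoxc8. The miRNAs fall into 2 seed groups.
miR-196a-5p (chr15:102973365-102973386, plus strand): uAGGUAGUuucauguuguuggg
miR-196b-5p (chr6:52230129-52230150, minus strand): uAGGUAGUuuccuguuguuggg
miR-10a-5p (chr11:96317186-96317208, plus strand): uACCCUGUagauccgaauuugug
miR-10b-5p (chr2:74726074-74726096, plus strand): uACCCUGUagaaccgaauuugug
The 7-base match to the miR-196 seed, ACTACCT, occurred in the annotated transcripts of 10 of the 32 members tested, against 19.0% of the 13261 coding genes tested, and 8 members held it in the 3′ untranslated region. The match to the miR-10 seed, ACAGGGT, occurred in 6 of the 32 members, against 24.0% of these coding genes, and 3 members held it in the 3′ untranslated region. Hoxc8 held the miR-196 match in its 3′ untranslated region at 2 places, shown on GRCm38 with the match in capitals.
Hoxc8 (chr15:102992976-102992997, plus strand): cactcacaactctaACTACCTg
Hoxc8 (chr15:102993733-102993754, plus strand): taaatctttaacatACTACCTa
Against miR-196b-5p, 11 and 12 of the 22 bases paired, the match included. Mature miRNAs were not measured here. Of the 8 members with the miR-196 match in the 3′ untranslated region, 6 had a positive and 2 a negative log2 fold change in the knockout. Among all 32 members tested, 23 were positive and 9 were negative. The share of all genes with the match in that region was not counted. None of the 8 members passed the edgeR test.

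Upstream sequence was matched for 19 of the 36 members. The 250 bases before the start are shown for 2 members holding the Hox and Pbx motif TGATNNAT on either strand (RefSeq, GRCm38.p6), 1 without overlap between the groups and 1 of high level, with the motif in capitals.
Hoxb8 (chr11:96281655-96281904, plus strand): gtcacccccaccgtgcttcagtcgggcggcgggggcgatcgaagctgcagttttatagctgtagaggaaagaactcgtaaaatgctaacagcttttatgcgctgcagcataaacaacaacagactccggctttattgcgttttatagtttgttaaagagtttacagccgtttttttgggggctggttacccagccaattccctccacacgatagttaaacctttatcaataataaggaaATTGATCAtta
Hoxd11 (chr2:74682073-74682322, plus strand): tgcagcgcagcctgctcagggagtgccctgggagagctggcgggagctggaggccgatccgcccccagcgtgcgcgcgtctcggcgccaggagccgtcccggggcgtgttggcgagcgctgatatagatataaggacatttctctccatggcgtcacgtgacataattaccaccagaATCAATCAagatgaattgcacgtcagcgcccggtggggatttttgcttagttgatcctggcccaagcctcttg
TGATNNAT was found in 3 of the 19 members (Hoxa2, Hoxb8 and Hoxd11), against 8.81% of 27025 genes with 250 bases before their start. The Gli motif GACCACCCA, searched on both strands, was found in 0 of the 19 and in 0.255% of all genes. A match describes letters in this window only.

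Genes that act with or on Hox genes were counted by list. Of the TALE cofactors, which bind DNA together with Hox proteins, 0 of 8 tested passed. Pbx2, one of them, was 58.4 against 55.5 CPM in the mean. Of noncoding and Evx genes at the Hox loci, 0 of 8 tested passed, with Gm53 at 34.2 against 33.1 CPM and Hoxd3os1 at 12.3 against 12.2 CPM. Hotair, a noncoding RNA of the Hoxc cluster, was at 3.50 against 3.34 CPM. Of the Polycomb genes, which keep Hox loci silent, 0 of 28 passed, with Rbbp7 at 153 against 160 CPM and Aebp2 at 144 against 159 CPM. Of the trithorax genes and demethylases, which keep them active, 0 of 14 passed, with Kmt2d at 190.3 against 187.5 CPM and Ash1l at 160.5 against 161 CPM. Of other positional factors, 0 of 11 passed, with Barx2 at 119.5 against 117 CPM and Dlx3 at 52.8 against 63.4 CPM. These lists held no gene past the threshold in either direction by edgeR. DESeq2 called 3 of their genes, named for that after their values were seen: Phf1 of the Polycomb list (log2 fold change 0.44, adjusted p = 0.00584), Kmt2a of the trithorax list (0.29, adjusted p = 0.00827) and Lhx2 of the positional factors (0.42, adjusted p = 0.0189).

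Retinoic acid is a known inducer of Hox genes, and 2 of 11 tested genes of its receptors and enzymes passed. Of these, 1 was higher and 1 was lower in the knockout. Cyp26b1, an enzyme that degrades retinoic acid, was 11.9, 11.7 and 13.5 CPM against 18.8, 18.5 and 19.0 CPM, and it was lower (−0.60, SE 0.10, adjusted p = 0.0292, edgeR). It did not pass when any 1 library was left out. The receptors Rxra (458 against 414 CPM) and Rarg (364 against 339 CPM) were the most abundant of the list and did not pass. Of the Hedgehog targets, Gli1 (log2 fold change 2.93) and Ptch1 (1.58) were higher and passed in every fit that left out 1 library. Hhip was 50.04, 8.49 and 77.6 CPM against 22.4, 2.06 and 114 CPM. Its lowest value in each group was in DE685 and DE684, the libraries with Y-linked transcripts.

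Markers of other cell types moved with the groups in part. Bulk RNA cannot tell fewer cells of a type from less RNA per cell. The 12 fibroblast markers summed to 193 to 222 CPM in the knockout and 95.0 to 127 CPM in the control, with 4 of 8 tested higher in mean and 1 past the threshold, Dcn (112 to 123 CPM against 20.8 to 40.6 CPM, log2 fold change 1.90, adjusted p = 0.00782, edgeR). Without Dcn the sums were 80.8 to 101 against 63.3 to 86.7 CPM, and without Dcn and Thy1 they were 37.1 to 51.3 against 34.7 to 68.0 CPM. Lum, Dpt and Twist2, other fibroblast markers, were at 0 to 0.351 CPM in all libraries. The 3 collagens of the list were highest in the control DE684, at 36.6 CPM. The hair follicle markers summed to 334 to 394 against 271 to 304 CPM (10 of 14 tested higher), the melanocyte markers to 87.8 to 128 against 61.0 to 88.3 CPM (8 of 8) and the immune markers to 187 to 299 against 121 to 248.6 CPM (11 of 11). None of these 3 lists held a gene past the threshold by edgeR, nor did the keratinocyte list (0 of 12). Of the immune sums, Epcam, which is also on the keratinocyte list, held 121, 114 and 135 against 103, 77.8 and 88.4 CPM. The groups did not overlap for Epcam and overlapped for every other immune marker. DESeq2 called 2 genes of the fibroblast list (Dcn and Thy1) and 3 of the hair follicle list (Lgr5, Lhx2 and Sox9). It also called 1 of the melanocyte list (Pmel), 1 of the immune list (Epcam) and 3 of the keratinocyte list (Epcam, Krt15 and Trp63). All of these were higher in the knockout. Over all genes, DESeq2 called 5.89% of the 14816 to which it gave an adjusted p. The log2 fold change by edgeR was positive for 49.3% of all genes tested. Endothelial markers summed to 3.99 to 4.90 against 4.28 to 7.20 CPM, muscle markers to 2.195 to 2.88 against 1.95 to 3.12 CPM, Merkel cell markers to 6.53 to 9.49 against 5.32 to 6.41 CPM, and nerve markers to 65.5 to 73.1 against 60.5 to 66.3 CPM. The part of these cell types in the Hoxc4 to Hoxc10 values was not tested.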

How the data were processed

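RNA from 6 samples, 3 per group, was sequenced. Per the submitters' processing notes, bcl2fastq 2.20, cutadapt 1.18, STAR 2.7.0f and Partek were used with build mm10; the counting tool and its strand setting are not given in the sources used here. The authors deposited estimated counts per gene, 53.5% to 58.3% of them whole, and a normalized signal. In that deposited signal each value equalled the count times a library constant plus 0.001; it was used only for limma-trend, as log2 of the value plus 1. The design had assumed whole counts; the estimated counts were rounded and the test was kept. Genes passing filterByExpr were fitted over all 6 libraries with edgeR 4.0.16 (glmQLFit, glmQLFTest, TMM factors 0.976 to 1.03), with a genotype term alone. Benjamini-Hochberg adjustment ran over 15422 genes, with a threshold of 0.05. The standard error is the log2 fold change divided by the square root of F. Fits were tested on simulated data. Library pairs within a group differed beyond counting noise (chi-square per degree of freedom 12.1 to 39.2). No label says that each sample came from a separate mouse, so p-values measure the spread between these samples. An exact permutation test of 3 against 3 cannot go below 0.1.

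The members, lists and markers were chosen with earlier results of these data known. Named were members with a mean of at least 1 CPM, the Hedgehog label checks, and from each list genes past the threshold and the 2 highest in CPM; other genes were named after their values were seen. Alternatives were upper-quartile and RLE (relative log expression) factors, no filter, at least 1 CPM, a sex covariate, DESeq2 1.42.0, limma-voom and limma-trend (limma 3.58.1), each library left out, and another gene length. The Y-linked term and the fibroblast sums without Dcn and Thy1 were added after seeing the data. Some genes are not reported here, in the text or the figures.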

Additional observations from a re-analysis of the deposited data

How the results depend on the processing

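No paired analysis was possible because no label ties the numbers in the column names to the replicate numbers of the samples. The number of Hox genes past the threshold was 0 in every fit except DESeq2, which gave 2. Over all genes tested, 247 passed (192 higher, 55 lower); a sex covariate gave 409 (299 higher, 110 lower), DESeq2 gave 872 (565 higher, 307 lower), and leaving out 1 library gave 69 to 121, with 15733 to 15870 genes tested. The related lists gave 9 genes with DESeq2 and 2 to 4 without 1 library, against 5. With the longest transcript as length, the shares of the summed level were 30.2% for Hoxa, 21.7% for Hoxc and 37.4% for Hoxd.

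Over the settings that left out no library, 247 of 252 log2 fold changes of single Hox genes kept direction and side of the threshold. Upper-quartile factors turned Hoxa10 (0.0062) and Hoxb9 (0.0076), and the sex covariate turned Hoxb9 (0.0041). Leaving out 1 library kept the direction of 174 of 192; the genes that turned ranged from −0.0891 to 0.0841 for Hoxa10, −0.5508 to 0.5548 for Hoxa11, −0.6059 to 0.4521 for Hoxa2, −0.0182 to 0.1338 for Hoxa6, −0.0462 to 0.541 for Hoxb5, −0.0169 to 0.1809 for Hoxb7, −0.1112 to 0.1381 for Hoxb9, −0.1729 to 0.0824 for Hoxc11, −0.0456 to 0.2567 for Hoxc12 and −0.2809 to 0.1693 for Hoxc13. The cause was not tested. Without DE689, Hoxa11 had the largest of these (0.5548); in that library it was at 1.82 CPM, against 0.614 and 0.754 CPM in the other controls.

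Depth limits Hoxa13, Hoxb13, Hoxd3 and Hoxd13, which lay near the floor of 3 counts, and the fold changes of Hoxc4 to Hoxc10 rest on 16 to 141 counts per library.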
